A study of Mus musculus with 6 samples.

Results

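The genes described here are 9 complement and acute-phase genes, C3, C4b, Cfb, C1ra, C1s1, Serping1, Masp1, Lcn2 and Saa3, chosen by symbol from the 18124 genes of a count table. They were measured by bulk RNA sequencing in mesenchymal stem cells of Col1-GFP mice, in which green fluorescent protein is driven by a collagen 1 promoter. Cells positive for the reporter and for Sca-1, the product of Ly6a, were sorted from the quadriceps of 6 naïve males and used at passage 4. In the senescent-medium group they spent 72 hours in conditioned medium from bone marrow-derived macrophages of naïve wild type mice that had received 300 µM hydrogen peroxide for 3 hours, again 3 days later, and a further 14 days of culture. In the control-medium group they spent the same time in medium from control macrophages of such mice. There were 3 libraries per medium by the sample titles, and the comparison addresses the effect of what senescent macrophages release on these stromal cells. Nothing says that the libraries of a medium were separate cell isolates or separate media, so the p-values reflect only the spread between libraries, which may be technical. How long the control macrophages had been in culture is not stated, so senescence and time in culture cannot be told apart.

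Complement is a cascade of blood and tissue proteins that tag microbes and debris. The classical route starts with the proteases C1r and C1s and the lectin route with the MASP proteases, and both cleave C4 and C2. The alternative route builds on C3 itself together with factor B, the product of Cfb. All routes meet at C3, whose cleavage feeds inflammation, phagocytosis and the terminal pore. Lipocalin 2 and serum amyloid A3, from Lcn2 and Saa3, are acute-phase proteins that inflammatory cytokines induce in many tissues. Although the liver makes most circulating complement, fibroblast-like stromal cells are also a source of C1r, C1s, C3 and C1 inhibitor.

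Promoter windows from RefSeq (build GRCm38.p6, 250 bases before to 50 bases after a gene's start) were found for 5 of the 9 genes, namely C3, C1ra, C1s1, Lcn2 and Saa3. The windows of 4 of them are shown because inflammatory induction is a known property of C3, Lcn2 and Saa3, while C1ra is the expressed gene whose level differed least between the media. They are on chromosome 17 for C3 (chr17:57228087-57228386, minus strand), chromosome 6 for C1ra (chr6:124512371-124512670, plus strand), chromosome 2 for Lcn2 (chr2:32387690-32387989, minus strand) and chromosome 7 for Saa3 (chr7:46715627-46715926, minus strand). Each is written 5′ to 3′ along the gene, and capitals mark letters that match a searched motif.
C3: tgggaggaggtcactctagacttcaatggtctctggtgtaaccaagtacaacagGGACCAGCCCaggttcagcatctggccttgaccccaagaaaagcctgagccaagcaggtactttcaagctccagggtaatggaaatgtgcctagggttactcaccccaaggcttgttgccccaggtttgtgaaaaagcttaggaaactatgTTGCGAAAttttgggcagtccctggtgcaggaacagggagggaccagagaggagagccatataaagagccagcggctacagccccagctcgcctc
C1ra: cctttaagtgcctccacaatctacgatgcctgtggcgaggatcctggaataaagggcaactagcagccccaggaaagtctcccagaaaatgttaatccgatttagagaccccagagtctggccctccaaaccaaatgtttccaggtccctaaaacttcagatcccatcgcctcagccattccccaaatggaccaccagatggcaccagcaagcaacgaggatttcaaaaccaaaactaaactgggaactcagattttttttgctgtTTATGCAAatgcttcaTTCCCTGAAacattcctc
Lcn2: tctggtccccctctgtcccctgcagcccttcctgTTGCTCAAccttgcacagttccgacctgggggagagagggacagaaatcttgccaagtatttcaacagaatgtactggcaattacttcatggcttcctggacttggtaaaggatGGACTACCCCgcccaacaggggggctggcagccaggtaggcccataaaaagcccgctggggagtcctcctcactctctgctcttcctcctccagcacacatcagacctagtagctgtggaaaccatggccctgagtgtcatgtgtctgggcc
Saa3: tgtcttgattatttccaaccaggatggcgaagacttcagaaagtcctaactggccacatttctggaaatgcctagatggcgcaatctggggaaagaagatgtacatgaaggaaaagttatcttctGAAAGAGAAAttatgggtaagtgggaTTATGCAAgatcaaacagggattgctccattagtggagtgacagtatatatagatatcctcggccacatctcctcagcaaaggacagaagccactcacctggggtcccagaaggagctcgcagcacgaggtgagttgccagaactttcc
Both strands were searched for GGG and TCC with 4 bases of any kind between them (the NF-kB type), TTGCNNAA (the C/EBP type), TTCNNNGAA (the STAT type, the same on both strands) and a pair of TTTC with 2 bases of any kind between them (the type of the interferon-stimulated response element). No match overlapped another. In the C3 window the NF-kB type matched at bases -196 to -187 and the C/EBP type at -45 to -38, counted from the gene's start. The Lcn2 window held the same pair, at -102 to -93 for the NF-kB type and at -216 to -209 for the C/EBP type. In Saa3 the C/EBP type lay at -99 to -92 and the interferon type at -125 to -116. The C1ra matches, a C/EBP type at bases 17 to 24 and a STAT type at 33 to 41, lay after the start. C1s1 had 2 windows, not shown, of which 1 held the C/EBP type at -242 to -235 and the other held no match. Each of the 5 genes thus held the C/EBP type in at least 1 window, whether or not its level differed between the media. Of all 32851 windows in the table, 19.2% held the NF-kB type, 10.8% the C/EBP type, 8.3% the STAT type and 3.44% the interferon type. A match is a description of letters and does not show a bound site.

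Libraries held 17228162 to 21659434 estimated counts. Spearman correlations of log2 CPM across genes ran from 0.996 to 0.997 between libraries of one medium and from 0.981 to 0.982 between libraries of different media. The sorted cells' defining genes were abundant in both media. Col1a1, the collagen 1 chain gene, averaged 7516 ± 229 CPM in senescent medium and 5361 ± 69.8 CPM in control medium (SD, n = 3 each), and Ly6a 1235 ± 46.8 CPM in senescent medium and 1206 ± 44.7 CPM in control medium. CPM are counts scaled to a common library size with TMM factors. The stromal proteoglycan gene Lum, by contrast, stayed at or under 0.240 CPM in every library. Of 9 stromal markers 8 were tested, of which 5 rose, 2 fell and 1, Ly6a, missed the threshold (edgeR). Over all genes tested, 24.6% were higher and 24.9% lower. Col1a1 was among those that rose (log2 fold change 0.49 ± 0.033 SE). The receptor genes Pdgfra (-0.29 ± 0.036) and Pdgfrb (-0.30 ± 0.034) fell. Of 14 macrophage markers 9 were not listed, among them Adgre1, Ptprc and the 3 C1q chain genes, and the summed CPM of the other 5 was 18.1 to 24.2 in senescent medium and 19.0 to 22.0 in control medium. None of 4 hepatocyte markers was listed. Of 6 muscle markers 2 were listed, and both rose, with a summed level of 17.5 to 19.8 CPM in senescent medium and 9.41 to 11.1 CPM in control medium. These were Des, the muscle intermediate filament gene (log2 fold change 1.65 ± 0.202 SE, adjusted p = 4.3e-08, edgeR), and Acta1, the skeletal muscle actin gene (0.70 ± 0.107, adjusted p = 1.96e-06, edgeR). Pax7, Myod1, Myf5 and Myh3 were not listed. Of 4 endothelial markers 2 were tested, of which the receptor gene Kdr rose (1.25 ± 0.341, adjusted p = 0.00283, edgeR) and Tek missed the threshold (0.18 ± 0.0776, adjusted p = 0.0545, edgeR). The summed endothelial markers were 25.7 to 32.5 CPM in senescent medium and 23.5 to 26.0 CPM in control medium, with Pecam1 at or under 0.281 CPM and Cdh5 not listed. The part of these markers in the results that follow was not tested.

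All 9 genes were listed, and 8 had enough counts to be tested; Saa3 did not. In senescent medium C3 and Cfb were higher, Masp1, Serping1, C4b and C1s1 were lower, and C1ra and Lcn2 did not pass the test (edgeR quasi-likelihood test, two-sided, Benjamini-Hochberg adjusted p under 0.05). Across all 14644 genes tested, 24.6% were higher and 24.9% lower by the same rule, 49.5% in all, so the 2 higher and 4 lower genes of 8 stand beside a transcriptome in which about as many genes were called as were not. The 3 libraries of each medium did not overlap for the 6 called genes. Of all genes tested, 55.8% had no overlap, 27.8% with senescent medium above and 28.0% with it below. Only Masp1 among the 8 tested changed by at least 1 on the log2 scale, as 5.9% of all genes tested did. The median log2 fold change of the 8 tested genes was -0.24, beside -0.0010 for all genes tested. The summed level of the 7 complement genes was 451, 457 and 419 CPM in senescent medium, against 603, 572 and 599 CPM in control medium, and these ranges do not overlap. The sum is not scaled by gene length, and 2 genes had the largest differences in it. These were Masp1 (means of 64.1 CPM in senescent and 145.8 CPM in control medium) and the inhibitor gene Serping1 (110.7 and 165.8 CPM). As C3 and Cfb rose, the sum does not show a fall of all complement genes. In bulk RNA, fewer cells expressing a gene and less RNA per cell cannot be told apart.

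**Figure D1:**
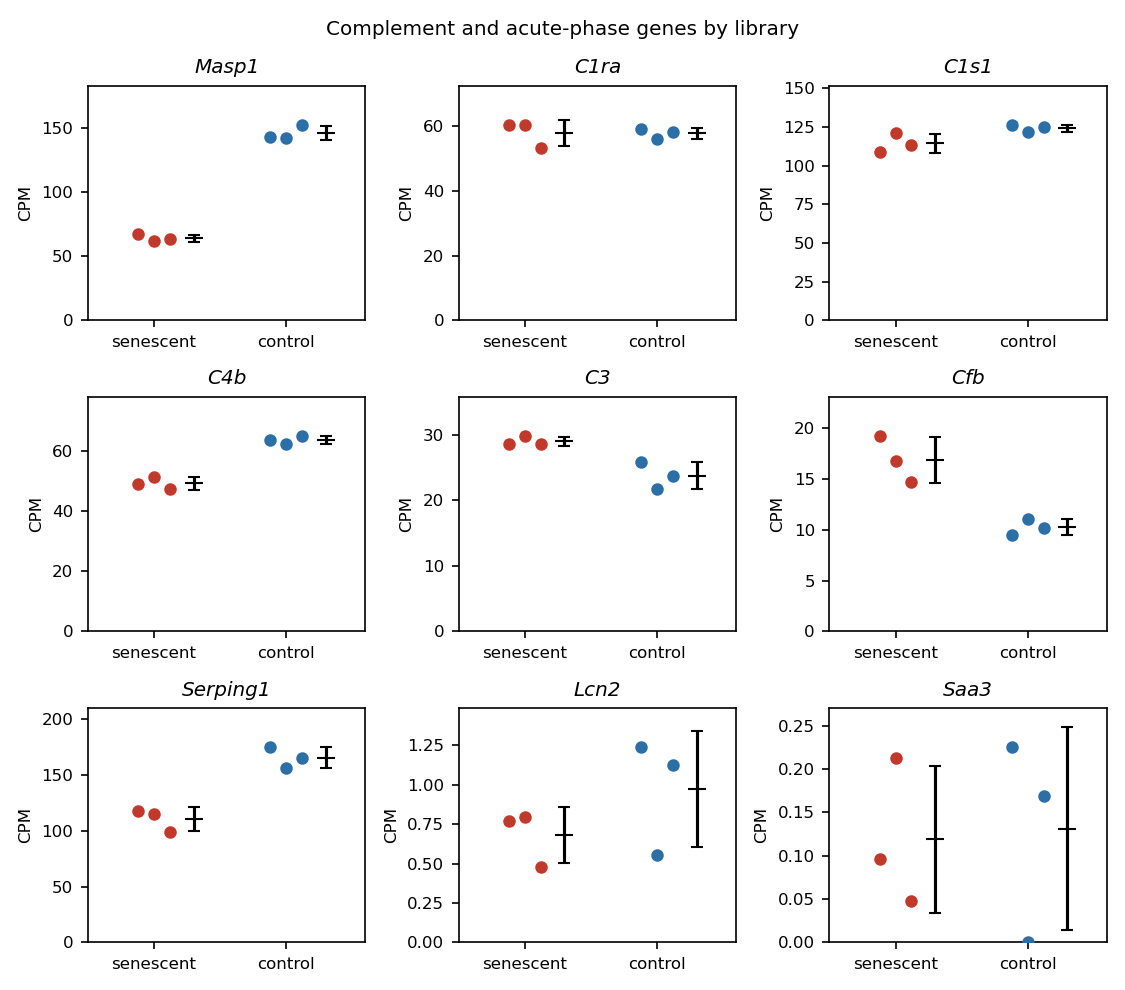
Expression level (CPM, axes from 0) of the 9 genes in each library, 3 libraries in senescent macrophage medium on the left of each panel and 3 in control medium on the right, with mean and SD in black. Masp1, Serping1, C4b and C1s1 lie lower and C3 and Cfb higher in senescent medium, while the points of C1ra, Lcn2 and Saa3 overlap.

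Among genes of initiating proteases the largest difference was in Masp1 (ENSMUSG00000022887), which encodes a serine protease of the lectin pathway. Counts are per gene and do not tell its alternative transcripts or their products apart. Masp2 was not listed. The level of Masp1 was 67.2, 62.1 and 63.1 CPM in senescent medium, against 143, 142 and 152 CPM in control medium. Every library in senescent medium was below every control library. The log2 fold change was -1.18 ± 0.045 (SE, n = 3 each; adjusted p = 7.961e-20, edgeR). It was -1.22 to -1.16 when any 1 library was left out.

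The classical pathway proteases differed much less. C1s1 (ENSMUSG00000038521), which encodes the protease that cleaves C4 and C2, had 109, 121 and 113 CPM in senescent medium, against 126, 122 and 125 CPM in control medium. The media did not overlap, but the highest library in senescent medium (121.2 CPM) nearly touched the lowest control library (121.8 CPM). C1s1 fell by 0.12 ± 0.043 on the log2 scale (adjusted p = 0.0221, edgeR). DESeq2 did not make this call (adjusted p = 0.0610), nor did edgeR without senescent-medium replicate 1 or 3 (0.1635 and 0.0721) or control replicate 3 (0.0546). An antisense gene, Gm16567, overlaps 18.4% of its exon length, and the use of strand in counting is not given in the sources used here. C1ra (ENSMUSG00000055172), whose product activates C1s, had 60.2, 60.4 and 53.4 CPM in senescent medium, against 59.2, 56.0 and 58.3 CPM in control medium. These values overlap, and the log2 fold change was 0.0040 ± 0.054 (adjusted p = 0.957, edgeR), or -0.078 with library totals (adjusted p = 0.234). The similar copies C1rb and C1s2 held at most 4 and 6 counts per library.

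At the C3 and C4 stage the genes moved in both directions. C4b (ENSMUSG00000073418), which encodes complement C4, a substrate of C1s, had 48.9, 51.4 and 47.1 CPM in senescent medium, against 63.6, 62.2 and 64.8 CPM in control medium. Its libraries stood apart by more than 10 CPM, and C4b fell by 0.37 ± 0.052 on the log2 scale (adjusted p = 4.373e-07, edgeR). Its near-identical neighbour C4a held 9 counts or fewer per library. With both summed, an alternative chosen after seeing the data, the log2 fold change was -0.37.

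C3 (ENSMUSG00000024164), the protein at which all routes converge, had 28.6, 29.8 and 28.6 CPM in senescent medium, against 25.9, 21.7 and 23.7 CPM in control medium. The media did not overlap and the spread was wider in the control libraries. The log2 fold change was 0.29 ± 0.073 (adjusted p = 0.00129, edgeR), and it lay between 0.23 and 0.35 with any 1 library left out.

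Cfb (ENSMUSG00000090231) encodes factor B, which supplies the protease of the alternative pathway convertase. It had 19.2, 16.8 and 14.7 CPM in senescent medium, against 9.52, 11.1 and 10.2 CPM in control medium. All libraries in senescent medium were above all control libraries, with more spread among them than in control medium. The log2 fold change was 0.72 ± 0.104 (adjusted p = 9.407e-07, edgeR) and 0.61 without senescent-medium replicate 1.

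C2, which encodes the classical and lectin pathway counterpart of factor B, lies beside Cfb in the genome. It had 16.7, 14.9 and 14.3 CPM in senescent medium, against 4.56, 6.46 and 5.29 CPM in control medium. The groups stand well apart, and C2 rose by 1.48 ± 0.120 on the log2 scale (adjusted p = 7.927e-12, edgeR), the largest rise among the complement genes reported here. An annotated protein-coding gene on the same strand, Gm20547, covers 79.5% of the exon length of Cfb and 42.8% of that of C2, and it is not listed in the table, so reads of Cfb and C2 could have been divided in ways that are not given. With C2 and Cfb summed, an alternative also chosen after seeing the data, the log2 fold change was 1.03.

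**Figure D2:**
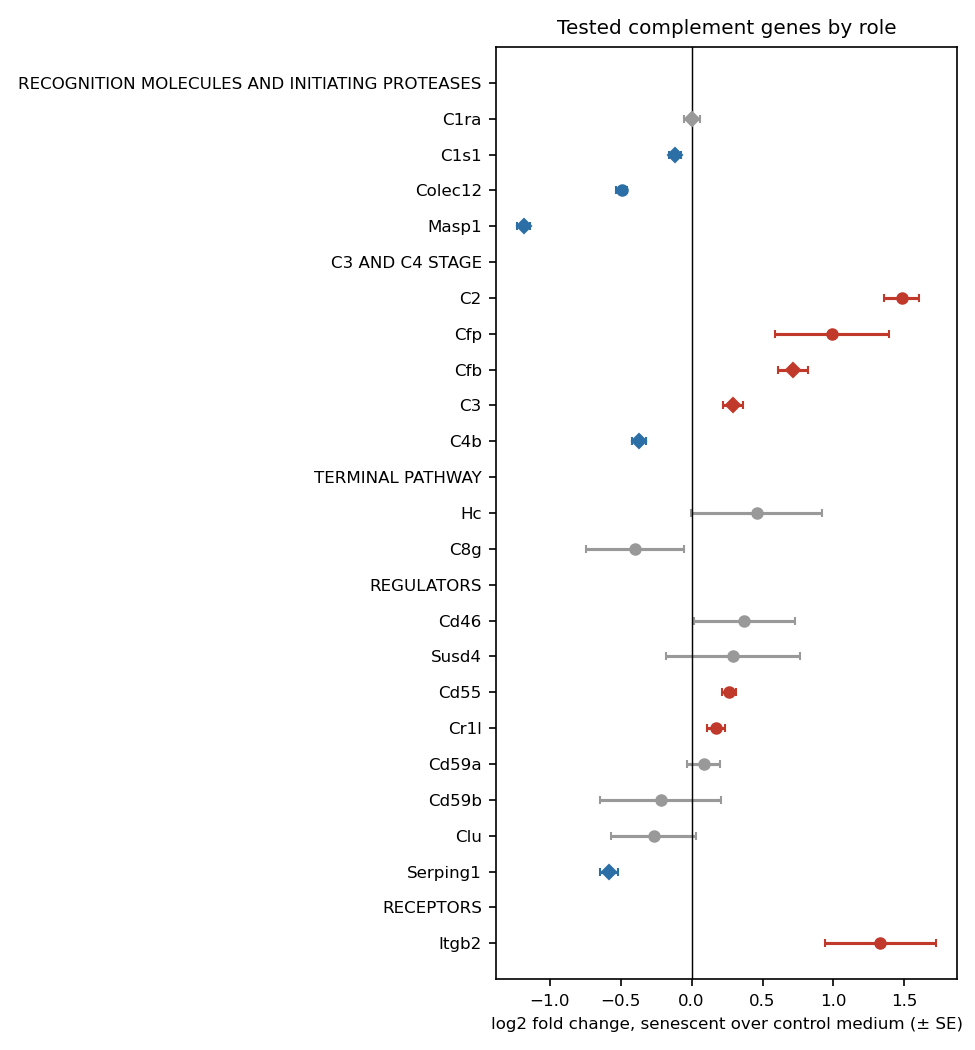
Log2 fold change (senescent over control macrophage medium, bars SE) of the tested complement genes by role, with diamonds for the genes described and circles for other genes, red for higher, blue for lower and grey for those that missed an adjusted p of 0.05 in edgeR. Initiating proteases lie at or left of 0, and the C3 and C4 stage genes other than C4b lie right of it.

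Among the regulators, Serping1 (ENSMUSG00000023224) encodes C1 inhibitor, the serpin that inactivates C1r, C1s and the MASPs. It had 118, 116 and 98.7 CPM in senescent medium, against 175, 157 and 165 CPM in control medium. The media did not overlap. The log2 fold change was -0.58 ± 0.066 (adjusted p = 2.078e-05, edgeR), and -0.63 to -0.50 with any 1 library left out.

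Of 13 genes on the regulator list 8 were tested, and 2 rose, 1 (Serping1) fell and 5 missed the threshold, beside 24.6% higher and 24.9% lower over all genes tested. Cd55, the membrane protein that speeds the decay of convertases, averaged 70.1 ± 0.968 CPM in senescent medium and 58.6 ± 2.40 CPM in control medium (log2 fold change 0.26). Cr1l, the rodent membrane regulator Crry, rose by 0.17 ± 0.064, a call lost with library totals (log2 fold change 0.094, adjusted p = 0.232, edgeR), with DESeq2 and without each of 3 libraries in turn (senescent-medium replicate 2, control replicates 1 and 3; adjusted p = 0.0529 to 0.0568). Cd59a, which blocks the terminal pore, averaged 14.5 ± 2.90 CPM in senescent medium and 13.6 ± 1.03 CPM in control medium and missed the threshold (adjusted p = 0.567, edgeR), as did Clu, the clusterin gene, at 1.24 ± 0.0775 CPM in senescent medium and 1.51 ± 0.279 CPM in control medium.

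Other complement genes outside the 9 were counted on a list of 44, of which 23 were listed and 13 tested. Of these 13, 5 rose, 1 fell and 7 missed the threshold, with a median log2 fold change of 0.26. The shares over all genes tested were 24.6% higher and 24.9% lower. The genes that rose numbered 2 without senescent-medium replicate 2 and 3 without control replicate 1, without control replicate 2, with DESeq2 or with library totals. The 1 that fell was Colec12, a membrane scavenger receptor of the collectin family, with 216, 213 and 196.5 CPM in senescent medium against 292, 295 and 294 CPM in control medium (log2 fold change -0.49 ± 0.037). With DESeq2 2 fell, the other being Cfd, and without the expression filter 3 fell, the others being Cfd and Colec10. Cfd, the gene of factor D, the protease that cleaves factor B, was below that filter and so not tested in the reported fit, and both it and Colec10 were chosen after their values were seen. Cfd had 0, 3 and 1 estimated counts in senescent medium against 17, 7 and 4 in control medium, with no overlap. The low-abundance Cfp, which encodes properdin, the stabiliser of the alternative pathway convertase, averaged 1.05 ± 0.226 CPM in senescent medium and 0.539 ± 0.189 CPM in control medium. Its call (adjusted p = 0.0412, edgeR) was lost under most alternatives, with adjusted p up to 0.202 without control replicate 2. Itgb2, the leukocyte integrin chain of complement receptors 3 and 4, had 1.92, 2.61 and 1.15 CPM in senescent medium, against 1.07, 0.277 and 0.956 CPM in control medium. The lowest value in senescent medium lies just above the highest of the control values, and its call (adjusted p = 0.00666, edgeR) was lost without senescent-medium replicate 2 (0.0645) or control replicate 2 (0.0526). Itgam and Itgax, the genes of the partner chains in these receptors, were not listed, so Itgb2 alone does not show a change in either receptor. Of the 4 macrophage markers tested 1 rose, 2 fell and 1, Cd68, missed the threshold, and their part in these results was not tested. The lysozyme gene Lyz2 rose, at 11.7 ± 1.33 CPM in senescent medium and 6.71 ± 0.779 CPM in control medium. Cd14, the endotoxin co-receptor gene, fell, with 4.13, 3.14 and 2.50 CPM in senescent medium against 7.72, 6.83 and 7.03 CPM in control medium (log2 fold change -1.14 ± 0.165). Csf1r, the receptor gene for macrophage colony-stimulating factor, fell too (-0.53 ± 0.194, adjusted p = 0.0248, edgeR). Of the terminal pathway, Hc (the C5 gene) averaged 0.635 ± 0.144 CPM in senescent medium and 0.464 ± 0.148 CPM in control medium and C8g, a terminal pore subunit gene, 1.01 ± 0.435 CPM in senescent medium and 1.33 ± 0.406 CPM in control medium. Both missed the threshold (adjusted p = 0.434 and 0.358, edgeR), and the other 5 terminal genes on the list were not listed in the table.

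Of the acute-phase members, Lcn2 (ENSMUSG00000026822), whose product binds bacterial siderophores, had 0.768, 0.799 and 0.481 CPM in senescent medium, against 1.24, 0.553 and 1.12 CPM in control medium. These rest on 10 to 16 counts per library in senescent medium and 12 to 22 in control medium. The media overlap, and a difference was not detectable at this depth (log2 fold change -0.49 ± 0.401, adjusted p = 0.331, edgeR). Saa3 (ENSMUSG00000040026), a serum amyloid made outside the liver in mice, had 2, 4 and 1 counts in senescent medium, against 4, 0 and 3 counts in control medium. It was not tested, and the library with 0 counts allows a level of up to 0.138 CPM (3 counts, counting error only). Both genes were at low levels in both media, with no call in either direction.

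Of 29 further acute-phase genes, 9 were listed and all 9 tested, with 2 higher, 2 lower and 5 that missed the threshold (median log2 fold change 0.0012). These counts stand beside 24.6% higher and 24.9% lower over all genes tested. Lbp, which encodes the lipopolysaccharide-binding protein, had 124.5, 121 and 125 CPM in senescent medium, against 69.0, 61.0 and 60.6 CPM in control medium. The groups are far apart for Lbp, and it rose by 0.96 ± 0.048 on the log2 scale (adjusted p = 7.971e-17, edgeR). Cp, the gene of the copper-carrying ferroxidase ceruloplasmin, rose to 21.1 ± 2.20 CPM in senescent medium, against 13.5 ± 1.18 CPM in control medium (log2 fold change 0.65).

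Hp, the haptoglobin gene, whose product captures free haemoglobin, had 9.94, 10.3 and 10.5 CPM in senescent medium, against 22.7, 18.7 and 22.8 CPM in control medium. It fell by 1.06 ± 0.095 on the log2 scale (adjusted p = 6.991e-11, edgeR), with no overlap between media. Serpina3g, an intracellular serpin, averaged 2.25 ± 0.0807 CPM in senescent medium and 3.91 ± 0.338 CPM in control medium (log2 fold change -0.80 ± 0.195). It belongs to a cluster of similar serpin genes, among which reads may be divided. The most abundant gene of the list, the long pentraxin Ptx3, had 957, 928 and 974 CPM in senescent medium, against 914, 878.5 and 937 CPM in control medium. Its libraries overlap and it missed the threshold (log2 fold change 0.068 ± 0.034, adjusted p = 0.0963, edgeR), as did Serpina3n, another acute-phase serpin, at 25.6 ± 0.148 CPM in senescent medium and 25.6 ± 0.532 CPM in control medium.

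**Figure D3:**
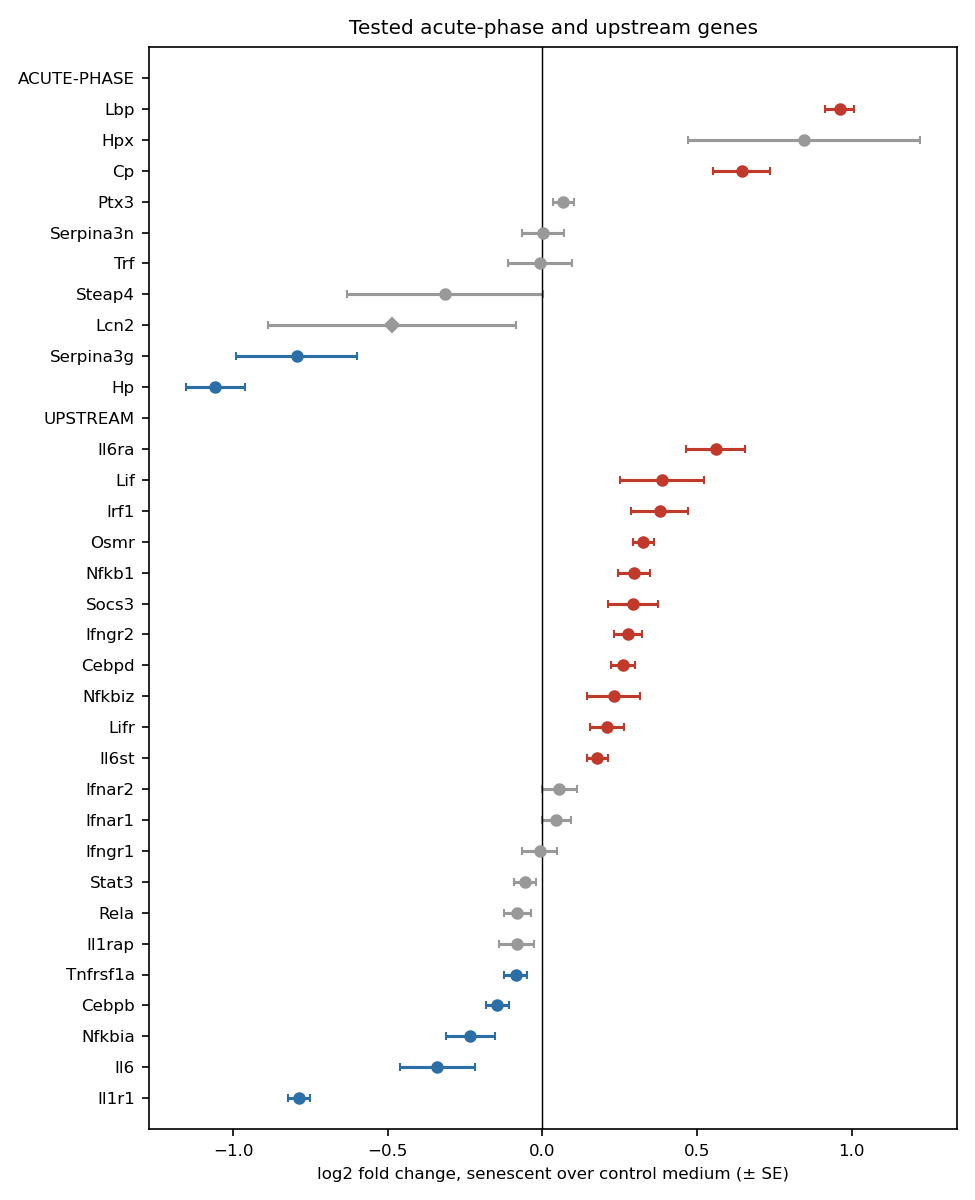
Log2 fold change (senescent over control macrophage medium, bars SE) of the tested acute-phase genes and of cytokine, receptor and transcription factor genes known to act upstream of them, with colours as in the plot of complement genes by role. Lbp and Cp lie right of 0 and Hp and Serpina3g left, and Il1r1 lies farthest left among the upstream genes.

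Genes known to act upstream of acute-phase and complement expression were counted on a list of 26, of which 22 were tested. Of these, 11 rose, 5 fell and 6 missed the threshold, with a median log2 fold change of 0.12. Over all genes tested, 24.6% were higher and 24.9% lower. Signalling itself was not tested. With library totals in place of scaled sizes 7 rose and 8 fell, and 3 fell when control replicate 1 or any senescent-medium replicate was left out. The interleukin-1 receptor gene Il1r1 had 174, 175 and 173 CPM in senescent medium, against 306, 292 and 303 CPM in control medium (log2 fold change -0.79 ± 0.035, adjusted p = 4.694e-18, edgeR). No other gene of the list that fell did so by as much. The oncostatin M receptor gene Osmr averaged 354 ± 6.76 CPM in senescent medium and 283 ± 8.04 CPM in control medium, and the interferon gamma receptor gene Ifngr2 had 92.7, 90.7 and 89.3 CPM in senescent medium, against 74.9, 73.6 and 76.6 CPM in control medium. Cebpd, a transcription factor of the acute-phase response, rose by 0.26 ± 0.039; 15.0% of its exon length is overlapped by Spidr on the opposite strand. Il6 was low, at 6.91 ± 0.468 CPM in senescent medium and 8.74 ± 0.418 CPM in control medium; edgeR called it (adjusted p = 0.0200). DESeq2 did not (0.0843), nor did edgeR when senescent-medium replicate 1 (0.0674), senescent-medium replicate 2 (0.0659) or control replicate 2 (0.0846) was left out. Stat3, the transcription factor downstream of interleukin-6, averaged 317 ± 10.4 CPM in senescent medium and 329 ± 11.1 CPM in control medium and missed the threshold (adjusted p = 0.187, edgeR), which it passed with library totals (0.00144). The cytokine genes Il1a, Il1b, Osm and Tnf were not listed.

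Levels can be set side by side between genes once divided by exon length, here the combined exon length of all annotated transcripts, which understates genes with long alternative exons such as Masp1. On this scale Serping1 was the highest of the 9, at 47.6 ± 4.54 CPM per kb in senescent medium and 71.3 ± 3.95 CPM per kb in control medium (SD, n = 3 each). C1s1 followed with 36.6 ± 1.94 CPM per kb in senescent medium and 39.7 ± 0.739 CPM per kb in control medium, and C1ra with 19.5 ± 1.34 CPM per kb in senescent medium and 19.4 ± 0.559 CPM per kb in control medium. Below them the order differed between media. In senescent medium C4b came next (8.63 ± 0.373 CPM per kb), followed by Masp1 (6.52 ± 0.273), Cfb (5.99 ± 0.804) and C3 (5.64 ± 0.137), and the libraries of Masp1 and Cfb and of Cfb and C3 overlapped. In control medium Masp1 (14.8 ± 0.557 CPM per kb) stood above C4b (11.2 ± 0.226), C3 (4.62 ± 0.408) and Cfb (3.64 ± 0.274), with no overlap between neighbours. Lcn2, at 0.260 ± 0.0669 CPM per kb in senescent medium and 0.371 ± 0.140 CPM per kb in control medium, and Saa3 were last in both.

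The likeness of other genes was measured as the root mean square distance between log2 CPM profiles over the 6 libraries, each centred on its mean. For the 3 genes with the largest differences, the nearest of all genes tested were Serinc2 for Masp1 (distance 0.031), Herc6 for Cfb (0.067) and Dck for Serping1 (0.041). These distances describe 2 groups of 3 libraries, between which many genes differ by similar amounts.

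**Figure D4:**
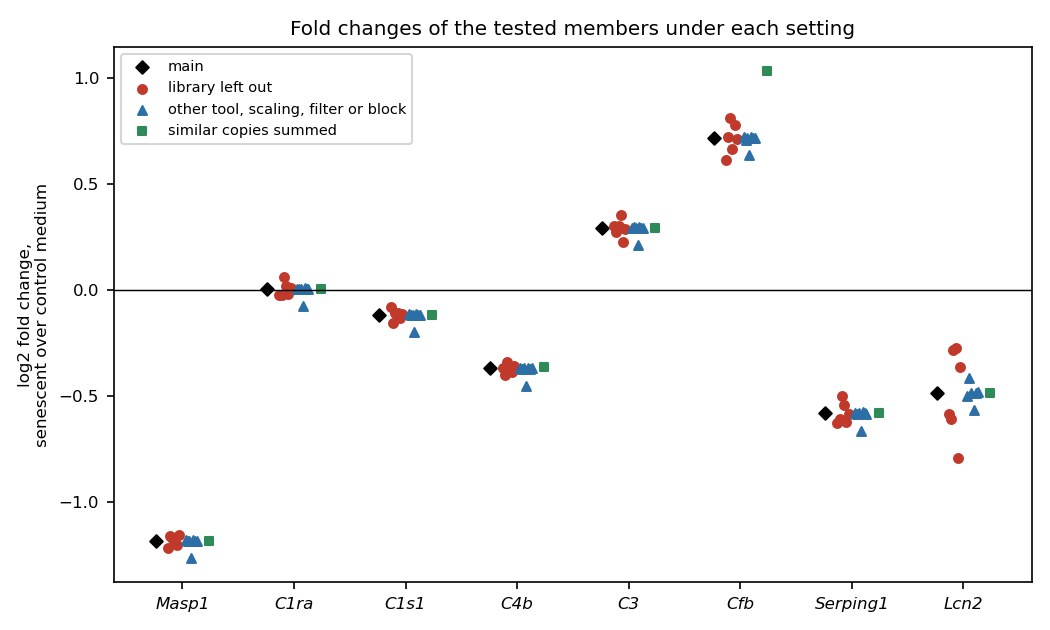
Log2 fold change (senescent over control macrophage medium) of the 8 tested genes in the test as reported (black diamonds), with each library left out (red circles), with another tool, scaling, filter or a replicate block (blue triangles) and with similar copies summed (green squares). C3 and Cfb stay above 0 and Masp1, Serping1, C4b, C1s1 and Lcn2 below 0 at every point, and C1ra lies on both sides of 0.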

How the data were processed

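RNA from cells in 3 libraries per medium (about 600 ng each, paired reads of 150 bp) was sequenced, per the labels' protocols. Values are the authors' deposited estimated counts per Ensembl gene, not normalized. The submitters' processing notes name STAR, DESeq2 and mm39 without saying how each was used, and how reads were assigned to genes, with which annotation and strand setting, is not given in the sources used here. Every listed gene has at least 10 counts over the 6 libraries, so an unlisted gene may have had fewer. Counts were rounded to whole numbers. Symbols were matched on identifier to GENCODE M21 (GRCm38) for 18092 of 18124 genes, which also gave exon lengths and overlaps.

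edgeR 4.0.16 (R 4.3.3) was run over all genes with its expression filter, TMM scaling and robust quasi-likelihood F-tests, medium as the only term, and calls at an adjusted p under 0.05. The SE of a log2 fold change is its size over the square root of F. The test was first run on simulated data in which only a small part of the genes was changed. It was not run on simulated data with as many changed genes as were called here, so it does not check the scaling for these data. Alternatives were DESeq2 1.42.0, limma-voom (limma 3.58.1), other scalings and filters, a replicate block and each library left out. The members, lists and tests were chosen with earlier results of these data known. Named genes are the members, up to 4 called genes with the smallest adjusted p per list, up to 2 abundant genes per complement or acute-phase list that missed the threshold, and fixed identity genes; some genes of the lists are not reported here. The floor given for a library with 0 counts covers counting error only.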

Additional observations from a re-analysis of the deposited data

How the results depend on the processing

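C3, C4b, Cfb, Serping1 and Masp1 kept their direction and call under the 14 alternatives run, and the calls of C1s1 and of the low genes are given above with the settings that end them. With DESeq2 3 complement genes outside the 9 rose, as with library totals, against 5. With DESeq2 the complement genes that fell numbered 2 and the upstream genes that fell 2, against 1 and 5. Without an expression filter 3 complement genes fell. With library totals 7 upstream genes rose and 8 fell, and over all genes 2589 rose and 4813 fell, against 3607 and 3644 with TMM scaling, with the median log2 fold change of all genes at -0.082. Leaving out 1 library at a time gave 2 to 4 higher complement genes, the lowest without senescent-medium replicate 2, when Cfp, Cr1l and Itgb2 lost their calls. It gave 3 to 4 lower upstream genes, with Il6 and Tnfrsf1a lost without senescent-medium replicate 1 or 2, and Nfkbia and Tnfrsf1a without senescent-medium replicate 3 or control replicate 1. Same-numbered libraries did not deviate together (correlations of 0.019, 0.0019 and 0.026). With 3 libraries per medium this cannot exclude a pairing by replicate number. With the replicate number as a block 2 members rose and 4 fell, the same genes. Lcn2 and Saa3 are limited by depth.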
